A study of Mus musculus with 2 samples.

Results

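Vegfa, Pgf, Angpt2 and Apln encode secreted angiogenesis ligands, and Kdr, Flt1, Nrp1, Tek, Tie1 and Aplnr encode receptors that endothelial cells carry. These 10 genes, of 32285 features in the count tables, were taken by symbol and followed through the cell types of a mouse tumor with and without CDC7 inhibition. The tumor was a subcutaneous J558 allograft, a plasmacytoma line of the B lymphocyte lineage, in female BALB/c mice. The TAK-931 mouse had received this CDC7 inhibitor by mouth (60 mg/kg daily, 6 days), and the vehicle mouse had received 0.5% methylcellulose. Each group was 1 single-cell library from 1 allograft at day 6, so no difference between the groups could be tested, and the effect of treatment cannot be told apart from that of the allograft, its dissociation or the library.

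VEGF-A is secreted by tumor, myeloid and stromal cells and signals mainly through VEGFR2, the product of Kdr, while VEGFR1 (Flt1) binds VEGF-A tightly and acts largely as a decoy, and is the receptor for placental growth factor (Pgf). Neuropilin-1 (Nrp1) is a co-receptor for VEGF-A and semaphorins. Angiopoietin-2 (Angpt2) is released by activated endothelium and binds TIE2 (Tek), which pairs with the orphan receptor TIE1. Apelin (Apln) is made by sprouting tip cells and acts on the receptor encoded by Aplnr in neighboring endothelial cells.

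The genes were counted as UMIs at transcript 3′ ends, and levels are given as CPM, the UMIs of the gene for every 1000000 UMIs of all cells of one type, so that cell types can be ordered within a gene, while different genes are not ranked against each other. Bracketed ranges are exact 95% intervals for counting error only. A log2 ratio is that of the TAK-931 level over the vehicle level, and "at least 2-fold" was used as a rule of size in place of a test, among genes with 10 or more UMIs in the 2 libraries together.

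Sequencing yielded 4565 vehicle barcodes with 144767193 UMIs in all, against 6558 barcodes and 77369283 UMIs for TAK-931. A limit of more than 2000 genes and less than 15% mitochondrial UMIs per cell left 3441 and 3488 cells with a median of 40504 and 15097 UMIs. Of the 8 barcodes shared by the libraries, 1 was kept in both. Kept cells were assigned by marker lists that hold none of the 10 genes, and are named by those markers: tumor (3012 vehicle, 102 TAK-931 cells), macrophage (221 and 2110), T/NK (20 and 709), endothelial (80 and 181), fibroblast (18 and 50), mural (15 and 28) and dendritic (16 and 37). Cells with markers of a second lineage, among which doublets would fall, were set apart (29 and 184), and 30 and 83 cells met no list. All 8 endothelial check markers not used for assignment (Vwf, Robo4, Ecscr, Sox17, Sox18, Erg, Mmrn2 and Plvap) were detected in the endothelial cells of both libraries, with a summed level of 4139 CPM in vehicle and 2823 in TAK-931, against 4.47 and 5.80 in tumor cells. All 6 plasma cell check markers, such as Jchain and Igha, were detected in the tumor cells of both, at 77041 and 88372 CPM.

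In the sum of all kept cells, 9 of the 10 genes were at least 2-fold higher in CPM in the TAK-931 library and none was 2-fold lower, where 37.3% of 18139 genes were past that fold upward and 19% downward. The log2 ratios ran from 0.91 for Aplnr to 3.45 for Pgf. Tumor cells were 87.5% of kept vehicle cells and 2.92% of kept TAK-931 cells, and in such sums fewer cells of a type and less RNA per cell cannot be told apart. The levels within each cell type are therefore given below, ligands first.

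Vegfa (ENSMUSG00000023951; GRCm38/mm10 chr17:46016993-46032369, minus strand) was counted mainly in tumor cells of the vehicle allograft and mainly in macrophages of the TAK-931 allograft. Of 4082 Vegfa UMIs in vehicle kept cells, 87.7% (86.6 to 88.7) lay in tumor cells and 7.67% in macrophages. Of 7567 in TAK-931 kept cells, 82.1% (81.3 to 83.0) lay in macrophages, 4.60% in fibroblasts and 1.98% in tumor cells. The remainder of the TAK-931 UMIs was largely in the cells with markers of 2 lineages (8.31%).

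**Figure D1:**
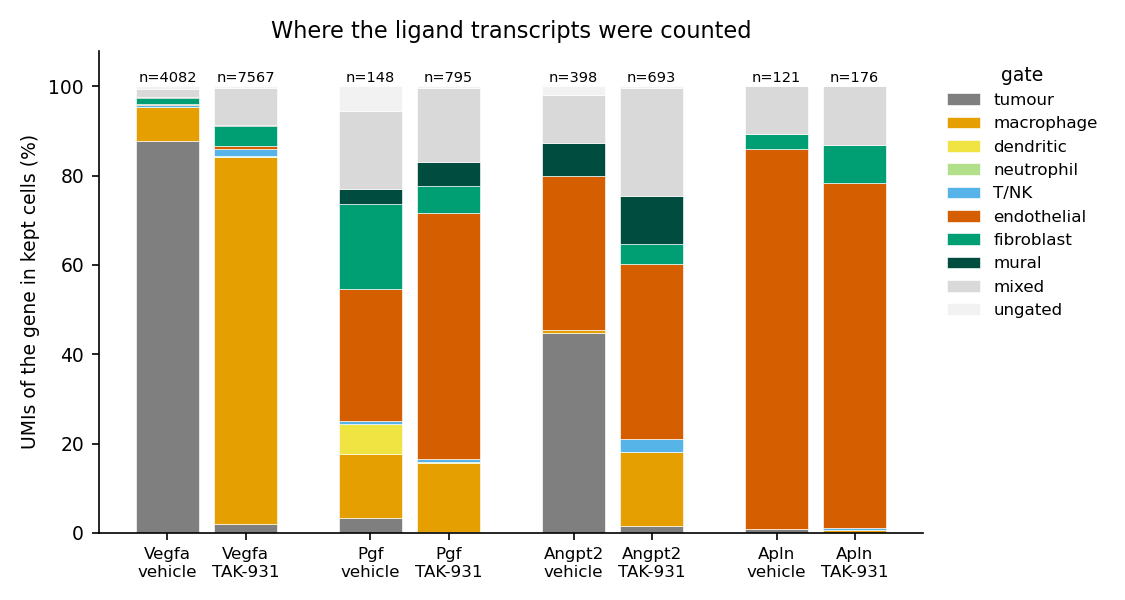
Share (%) of each ligand gene's UMIs that lay in each cell type, for both libraries, with the number of UMIs (n) above each bar. Vegfa UMIs were mostly in tumor cells (gray) in vehicle and in macrophages (orange) in TAK-931, whereas most Apln UMIs were in endothelial cells in both.

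By CPM, tumor cells were not the cells with the highest Vegfa level in either library. In vehicle, fibroblasts (113.5, 87.0 to 145.5) and macrophages (112.7, 100.5 to 126) stood at the top with overlapping intervals, and tumor cells were at 26.9 (26.0 to 27.8). In TAK-931, fibroblasts were at 205.5 (184.5 to 228), macrophages at 177.4 (173 to 182) and tumor cells at 20.7 (17.5 to 24.3). A single fibroblast held 22.6% of the 62 fibroblast UMIs in vehicle and 16.1% of the 348 in TAK-931. Endothelial cells, on which VEGF-A acts, carried little Vegfa RNA themselves, with 6 UMIs in vehicle and 40 in TAK-931.

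Within tumor cells the Vegfa log2 ratio was -0.38 (-0.62 to -0.14), and 8.50% of vehicle and 8.82% of TAK-931 tumor cells had a Vegfa UMI when every cell was thinned to 4000 UMIs (56.01% and 55.9% before thinning, at medians of 42405.5 and 71684.5 UMIs). A single TAK-931 tumor cell held 11.3% of the 150 UMIs there.

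In macrophages the Vegfa log2 ratio was 0.66 (0.49 to 0.82), a 1.57-fold higher level, short of the 2-fold rule. Thinned to 4000 UMIs, 59 of 221 vehicle macrophages (26.7%) and 779 of 2110 TAK-931 macrophages (36.9%) had a Vegfa UMI, a difference of 10.2 points (3.70 to 16.0). Before thinning the shares were 42.5% and 59.5%, at medians of 10455 and 14729 UMIs. In T/NK cells, taken as cells that should make little Vegfa, the thinned share was 2.40% in TAK-931 (17 of 709 cells, median 14221 UMIs). In vehicle it was 20% (4 of only 20 cells, median 11947.5 UMIs), so that the vehicle macrophage share had no low background beside it. Over the alternatives the ratio ran from 0.16 to 0.82, with the highest value without the 3 cells with most Vegfa UMIs in each library. It was 0.39 as the mean of each cell's level and 0.16 in macrophages without a UMI of any endothelial marker, a comparison chosen after seeing the data. Those markers include Pecam1 and Eng, which macrophages also express. Pecam1 had a UMI in 31.7% of vehicle and 32.3% of TAK-931 macrophages, and Eng in 16.7% and 23.9%.

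The macrophage difference was uneven between macrophage states. Macrophages with at least 10 UMIs of the complement genes C1qa, C1qb and C1qc per 10000, a feature of mature tissue macrophages, made up 57.9% of vehicle and 58.3% of TAK-931 macrophages. Their Vegfa level was 61.8 (51.3 to 73.9) in vehicle and 164 (159 to 169) in TAK-931, a log2 ratio of 1.41 (1.15 to 1.68). Macrophages under that limit had 234 (202 to 269) and 204 (196 to 212), a log2 ratio of -0.20 (-0.41 to 0.02). The state with less C1q thus had the higher Vegfa level in both libraries, and the gap between the states was narrower in TAK-931.

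Stromal cells had higher Vegfa levels by CPM in TAK-931, as well as higher levels of macrophage markers, while the thinned shares of cells did not differ beyond counting error. In fibroblasts the log2 ratio was 0.86 (0.46 to 1.27), and in mural cells, the contractile cells that wrap vessels, the counts were 1 UMI in 15 vehicle cells and 17 UMIs in 28 TAK-931 cells (3.15 and 30.2 CPM; log2 ratio 3.27, 0.59 to 8.65). A Vegfa UMI was found in 88.9% of vehicle and 76% of TAK-931 fibroblasts, and in 6.67% and 25% of mural cells. After thinning, the fibroblast shares were 33.3% and 44%, a difference of 10.7 points (-15.6 to 32.5). The thinned mural shares were 0 of 15 and 0 of 28 cells. A single cell held 41.2% of the 17 TAK-931 mural UMIs. The 6 macrophage check markers summed to 128 CPM in vehicle and 608 in TAK-931 fibroblasts and to 25.2 and 815 in mural cells, and their part in the Vegfa ratios was not tested. T/NK cells differed in the other direction, from 57.8 to 9.95 CPM (log2 ratio -2.54, -3.25 to -1.74), where the vehicle value rested on 18 UMIs in 6 of 20 cells.

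**Figure D2:**
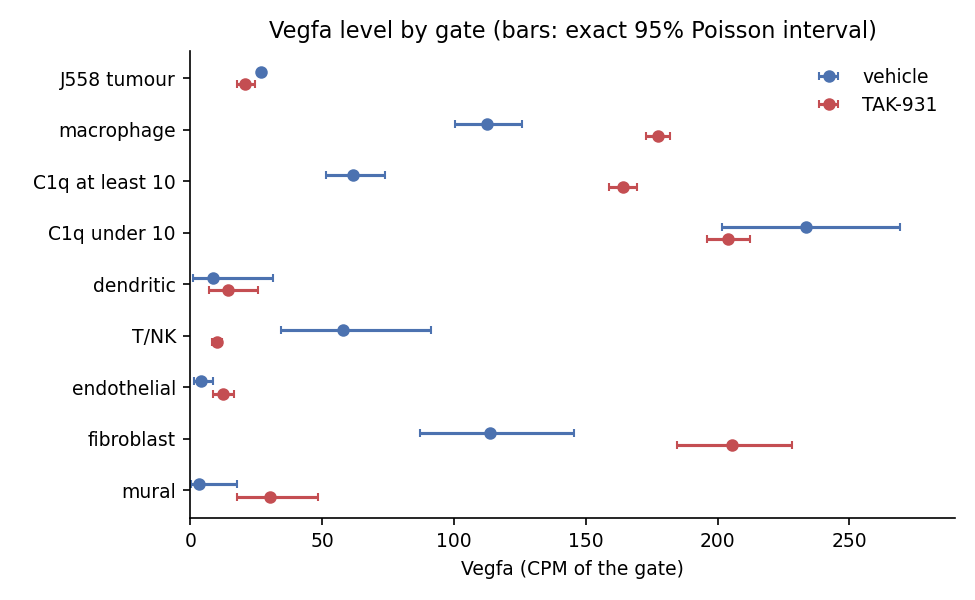
Vegfa level (CPM of the cell type) in vehicle (blue) and TAK-931 (red), with exact 95% Poisson intervals, and for macrophages with at least or under 10 C1q UMIs per 10000. The macrophage level was 112.7 in vehicle and 177.4 in TAK-931, with the gap in the state with more C1q (61.8 and 164).

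Pgf (ENSMUSG00000004791; chr12:85166635-85177790, minus strand), which encodes the VEGFR1 ligand placental growth factor, was the member with the largest upward ratio in endothelial cells. Its level there was 29.2 (21.2 to 39.2) in vehicle and 133.5 (121 to 147) in TAK-931, a log2 ratio of 2.19 (1.74 to 2.67) or 4.57-fold, which was 3.75 without the 3 cells with most Pgf UMIs in each library. In vehicle, 10 of 80 endothelial cells held its 44 UMIs and 1 cell held 56.8% of them, and in TAK-931, 66 of 181 cells held 439 UMIs. Thinned to 4000 UMIs, 5.00% of vehicle and 20.4% of TAK-931 endothelial cells had a Pgf UMI, against 0 of 20 and 0 of 709 T/NK cells, which allows shares of up to 15% and 0.423% (3 counts).

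Outside the endothelium, Pgf differed in both directions. Mural cells had 15.7 CPM in vehicle and 74.7 in TAK-931 (5 and 42 UMIs; log2 ratio 2.25, 0.91 to 3.94), fibroblasts 51.3 and 28.3 (log2 ratio -0.85, -1.56 to -0.13), and macrophages 7.56 and 3.54 (21 and 124 UMIs; log2 ratio -1.09, -1.77 to -0.35). Dendritic cells had 10 UMIs in 16 vehicle cells and 1 UMI in 37 TAK-931 cells (43.2 and 1.31 CPM; log2 ratio -5.05, -10.5 to -2.23). Endothelial cells held 29.7% (22.5 to 37.8) of the 148 vehicle Pgf UMIs and 55.2% (51.7 to 58.7) of the 795 in TAK-931. In vehicle the intervals of fibroblast, dendritic, endothelial and mural cells overlapped from each to the next, whereas in TAK-931 endothelial, mural, fibroblast and macrophage cells followed in that order without overlap.

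Angpt2 (ENSMUSG00000031465; chr8:18690263-18741562, minus strand), the angiopoietin that opposes vessel quiescence, differed by less than counting error between the endothelial cells of the 2 libraries. It stood at 90.9 (76.3 to 107.5) in vehicle and 83.0 (73.5 to 93.5) in TAK-931, a log2 ratio of -0.13 (-0.43 to 0.18). Over 14 alternatives that ratio ran from -0.72 to 0.13, past the lower end of the interval. Mural cells carried Angpt2 at 94.4 (63.7 to 135) and 132 (103 to 165) CPM (log2 ratio 0.48, -0.15 to 1.14), overlapping the interval of endothelial cells in vehicle and above it without overlap in TAK-931. Fibroblasts had 0 UMIs in vehicle and 31 in TAK-931, which put the TAK-931 level at least 3.33-fold higher when 3 counts are allowed for the vehicle sum. Those 31 UMIs lay in 10 of 50 cells, and mural markers were also detected in the fibroblasts of both libraries.

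Tumor cells carried Angpt2 at a low level, 1.34 (1.15 to 1.55) in vehicle and 1.52 (0.76 to 2.72) in TAK-931, spread over 172 vehicle cells and 11 TAK-931 cells. They held 44.7% (39.8 to 49.8) of the 398 vehicle Angpt2 UMIs and 1.59% of the 693 in TAK-931. Endothelial cells held 34.4% and 39.4%.

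Apln (ENSMUSG00000037010; chrX:48025146-48034853, minus strand), the apelin gene, was found mainly in endothelial cells, which held 85.1% of its 121 UMIs in vehicle and 77.3% of its 176 in TAK-931. Among the named cell types fibroblasts were next, at 4 and 15 UMIs. The cells set apart for markers of a second lineage held more, at 13 and 23. The endothelial level was 68.4 (55.8 to 82.9) in vehicle and 41.4 (34.7 to 48.9) in TAK-931, a log2 ratio of -0.73 (-1.11 to -0.34). That ratio hung on single cells, since 1 of 80 vehicle cells held 60.2% of the UMIs, and it turned to 0.99 without the 3 cells with most Apln UMIs in each library. Apln was found with Angpt2, another tip cell gene: in cells thinned to 4000 UMIs, 5 of 8 vehicle endothelial cells with Apln also had Angpt2 (13 of the 72 without Apln), as did 12 of 21 in TAK-931 (37 of the 160 without).

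The endothelial receptors separated into a set that was lower in TAK-931 and a set that differed little. Flt1, Aplnr and Nrp1 were at least 2-fold lower, Kdr was 1.97-fold lower, and Tek and Tie1 were within 1.31-fold. The Nrp1 call was lost with no limit on a second lineage (log2 ratio -0.92) and under median-ratio scaling (-0.93), that of Aplnr in cells without a UMI of 7 macrophage markers (-0.95; chosen after seeing the data), and Kdr passed 2-fold with no mitochondrial limit (-1.004) and as the mean of each cell's level (-1.04). Counting ligands and receptors together, 3 of the 10 genes were at least 2-fold lower in endothelial cells, where 10.3% of 11321 genes were, and 2 (Pgf and the sparse Vegfa) were at least 2-fold higher, where 10.5% were. The median log2 ratio was -0.56 over the 10 genes and -0.13 over all genes. It was -0.42 over the 8 endothelial markers used for assignment and -0.40 over the 8 endothelial check markers, with 7 and 6 of them below 0. Genes with 50 or more UMIs in each library had a median of -0.26, and relative to that shift Flt1 was at -1.36, Aplnr at -1.11, Nrp1 at -0.93, Kdr at -0.72, Apln at -0.46, Tek at -0.12, Angpt2 at 0.13, Tie1 at 0.19 and Pgf at 2.46, so that Angpt2 and Tie1 changed sign.

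**Figure D3:**
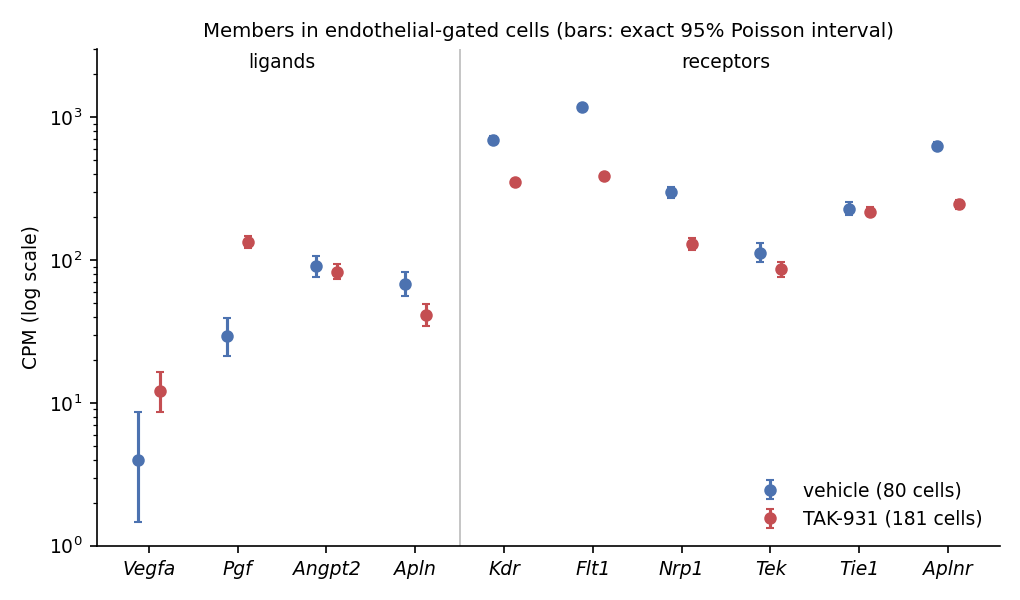
Level of each gene (CPM, log scale) in endothelial cells of the vehicle (80 cells, blue) and TAK-931 (181 cells, red) library, with exact 95% Poisson intervals. Kdr, Flt1, Nrp1 and Aplnr were lower in TAK-931, Pgf was higher, and the intervals of Angpt2 and Tie1 overlapped.

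Flt1 (ENSMUSG00000029648; chr5:147561604-147726011, minus strand), the VEGF-A decoy and Pgf receptor, had an endothelial level of 1187 (1133 to 1244) in vehicle and 386 (365 to 408) in TAK-931. The log2 ratio was -1.62 (-1.73 to -1.52), 3.08-fold lower. The difference ran through the cells and not a few of them: the quartiles of the level per cell were 646, 1067 and 1378 in vehicle and 102, 304 and 549 in TAK-931, so that the upper quartile in TAK-931 lay below the lower quartile in vehicle. Thinned to 4000 UMIs, 93.8% of vehicle and 61.9% of TAK-931 endothelial cells had a Flt1 UMI (100% and 84.0% before thinning), a difference of -31.9 points (-39.9 to -21.7). In tumor cells, which should lack the gene, the thinned share was 0.0664% in vehicle (2 of 3012 cells) and 0 of 102 in TAK-931, which allows up to 2.94%. The median depth of endothelial cells was 16888 and 13754 UMIs.

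Aplnr (ENSMUSG00000044338; chr2:85136225-85139923, plus strand), the apelin receptor gene, was at 635 (596 to 677) in vehicle and 246 (229 to 263) in TAK-931 endothelial cells, with a log2 ratio of -1.37 (-1.51 to -1.23). The median per cell was 579 and 171. Thinned shares were 81.2% and 47.5%, and the tumor cell shares were again 2 of 3012 and 0 of 102. Outside endothelial cells and the cells of 2 lineages, no other named cell type reached 1 CPM.

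Kdr (ENSMUSG00000062960; chr5:75932827-75978458, minus strand), the main signaling VEGF receptor gene, was at 693 (652 to 736) in vehicle and 351 (331 to 372) in TAK-931 endothelial cells. The log2 ratio of -0.98 (-1.10 to -0.86) has the 2-fold rule inside its interval. The quartiles per cell were 369, 636 and 844 in vehicle and 149, 267 and 445 in TAK-931, and the thinned shares were 88.8% and 64.6%, with 2 of 3012 and 0 of 102 tumor cells beside them.

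Nrp1 (ENSMUSG00000025810; chr8:128358604-128503363, plus strand), the co-receptor gene, was at 298 (271 to 327) in vehicle and 130.2 (118 to 143) in TAK-931 endothelial cells, a log2 ratio of -1.20 (-1.39 to -1.001). The median per cell was 279 and 109, and the thinned shares were 62.5% and 37.0%, with 1 of 3012 and 0 of 102 in tumor cells.

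Tek (ENSMUSG00000006386; chr4:94739289-94874976, plus strand), which encodes the angiopoietin receptor TIE2, was at 112.8 (96.5 to 131) and 86.4 (76.6 to 97.0), a log2 ratio of -0.39 (-0.66 to -0.10). Tie1 (ENSMUSG00000033191; chr4:118471191-118490061, minus strand) was at 229 (205.5 to 254.5) and 218 (202 to 235), a log2 ratio of -0.07 (-0.26 to 0.12). Over 14 alternatives the log2 ratio ran from -0.47 to 0.31 for Tek, with its sign kept in 13. For Tie1 it ran from -0.16 to 0.19, with its sign kept in 12. Thinned shares were 21.2% and 26.5% for Tek, a difference of 5.27 points (-6.49 to 15.5), and 62.5% and 53.0% for Tie1, a difference of -9.46 points (-21.7 to 3.61). Neither share differed beyond its counting interval. As a ratio within the same cells, Kdr per Tie1 UMI was 3.03 in vehicle and 1.61 in TAK-931, and Flt1 per Tie1 was 5.19 and 1.77. A vehicle endothelial cell thinned to 4000 UMIs had a median of 5 of the 10 genes and a TAK-931 cell 3.

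**Figure D4:**
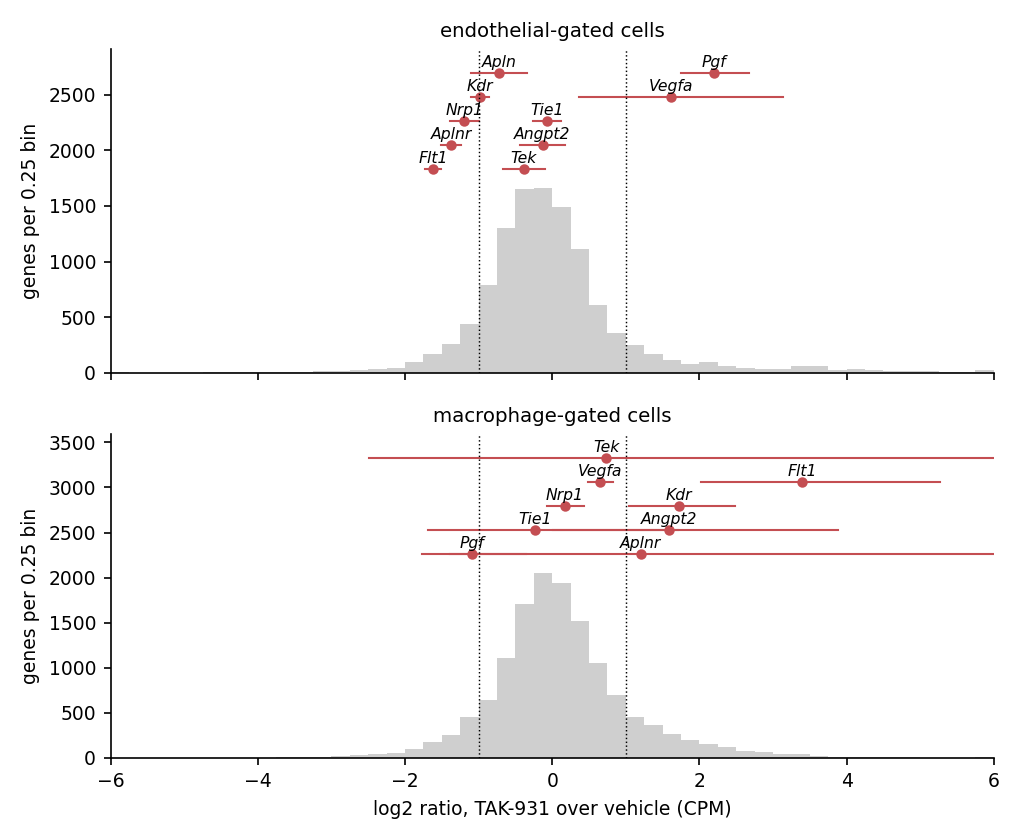
Log2 ratio of TAK-931 over vehicle for each gene with 10 or more UMIs (red points, with exact 95% intervals cut off at the axis limits of -6 and 6) above the histogram of that ratio over all genes (gray, genes per bin of 0.25, with genes past the axis limits in the end bins), in endothelial and macrophage cells. Dotted lines mark 2-fold. In endothelial cells Flt1, Aplnr and Nrp1 lay below the lower line and Pgf and Vegfa above the upper one, whereas in macrophages Flt1, Kdr, Angpt2 and Aplnr lay above it.

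The promoters of the receptor genes with the lower levels are shown beside that of Tek, which differed less, so that the sequence can be read with the values. Aplnr and Angpt2 had no matching window. Tie1, which differed least, had 1 ETS core and no hypoxia core, and is not printed because 212 of its 250 bases lay in an annotated exon. Each is the stretch of 250 bases before the RefSeq start site in GRCm38.p6, 5′ to 3′ on the strand of the gene. The Nrp1 stretch lies inside the gene as annotated by GENCODE, after its start at chr8:128358604, and overlaps annotated exons by 0 bases. Capitals mark the core of the hypoxia response element (ACGTG or GCGTG on either strand, so also CACGT or CACGC) and the ETS core (AGGAAG or, on the other strand, CTTCCT), a motif of factors active in endothelium.
Kdr, chr5:75978456-75978705, minus strand: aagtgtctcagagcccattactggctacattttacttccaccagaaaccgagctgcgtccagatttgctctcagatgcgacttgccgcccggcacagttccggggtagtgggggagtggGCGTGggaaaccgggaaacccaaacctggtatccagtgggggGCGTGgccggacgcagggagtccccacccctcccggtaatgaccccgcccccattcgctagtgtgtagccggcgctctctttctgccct
Flt1, chr5:147726012-147726261, minus strand: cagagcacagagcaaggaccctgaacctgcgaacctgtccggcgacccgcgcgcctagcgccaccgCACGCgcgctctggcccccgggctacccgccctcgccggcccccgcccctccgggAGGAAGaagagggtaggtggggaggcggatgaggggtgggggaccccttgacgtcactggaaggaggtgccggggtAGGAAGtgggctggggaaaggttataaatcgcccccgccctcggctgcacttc
Nrp1, chr8:128358823-128359072, plus strand: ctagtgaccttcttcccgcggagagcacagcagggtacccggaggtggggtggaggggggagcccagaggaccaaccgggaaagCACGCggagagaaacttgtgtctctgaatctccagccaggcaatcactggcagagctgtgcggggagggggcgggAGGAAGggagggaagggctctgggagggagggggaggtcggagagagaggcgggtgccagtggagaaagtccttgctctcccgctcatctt
Tek, chr4:94739039-94739288, plus strand: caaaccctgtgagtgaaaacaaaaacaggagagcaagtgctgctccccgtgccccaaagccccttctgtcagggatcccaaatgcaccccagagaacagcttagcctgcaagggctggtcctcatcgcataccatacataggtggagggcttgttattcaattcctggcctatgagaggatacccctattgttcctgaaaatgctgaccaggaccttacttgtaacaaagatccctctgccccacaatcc
The Kdr stretch holds 2 hypoxia cores and no ETS core, Flt1 holds 1 and 2, Nrp1 holds 1 and 1, and Tek holds neither. RefSeq windows were matched for 8 of the 10 genes. Of their 10 windows, 5 had a hypoxia core and 4 an ETS core, where 38.6% and 29.5% of 32851 windows of the same kind had one. The Pgf and Vegfa windows among those 5 lay in annotated exons for 250 and 218 of 250 bases. A match is a description of the letters and not a bound site. Among 10 genes known to respond to low oxygen, 8 could be read in endothelial cells, of which 2 were at least 2-fold lower in TAK-931 (Ldha, log2 ratio -1.60, and Slc2a1, -1.03), 1 was higher (Pfkfb3, 1.55), beside 10.3% and 10.5% of all genes, and the median was -0.74. In macrophages 1 of 10 was at least 2-fold higher and none lower, beside 13.4% and 8.41%, with a median of -0.07.

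Markers of other cell types, and of endothelial subtypes, also differed between the endothelial cells of the 2 libraries. The summed level of the 8 mural markers was 934 CPM in vehicle and 78.8 in TAK-931, of which Kcnj8 (546 and 6.39) and Abcc9 (374 and 14.0) made up most in vehicle, while the mural markers Notch3 and Higd1b were at 0 there. Rgs5, the largest part of the TAK-931 sum, was at 5.97 and 44.7. Kcnj8 had a UMI in 92.5% of vehicle endothelial cells and 7.73% of TAK-931 ones. The macrophage markers Csf1r, Adgre1, Cd68, Lyz2, Fcgr1, C1qa and Ms4a7 summed to 13.9 and 276, with Lyz2 at 3.98 and 191 and C1qa at 3.32 and 32.2. The 8 fibroblast markers summed to 95.6 and 20.4, carried in vehicle by Col1a1 (69.7 and 9.73) and Col1a2 (25.9 and 7.91), which had a UMI in 3 and 1 of the 80 vehicle cells, while 6 of the 8, Dcn among them, were at 0 there. The stromal check list, whose members such as Sparc endothelial cells also express, summed to 10837 and 3980, and the plasma cell check list to 1170 and 302. The 8 endothelial markers used for assignment summed to 7468 and 5574.

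Of the endothelial subtype lists, the venous list was at 1861 and 586 CPM, through Lrg1 (1668 and 317), while Vwf (14.6 and 50.2) and Ackr1 (8.63 and 38.0) went the other way. The capillary list was at 2285 and 2121, with Car4 at 465 and 54.1 and Rgcc at 107 and 409. The arterial list was at 538 and 470, the tip cell list at 869 and 604, the sparse lymphatic list, which differed most by fold, at 22.6 and 5.17, and the list of dividing-cell genes at 168 and 209. The endothelial cells of the 2 libraries were therefore unlike in more than the angiogenesis genes, and the part of subtype or other cells' RNA in the receptor ratios was not tested. In endothelial cells without a UMI of any of those 7 macrophage markers (67 vehicle and 34 TAK-931 cells, chosen after seeing the data), the log2 ratio was -1.40 for Flt1, -1.33 for Nrp1, -0.997 for Kdr and -0.95 for Aplnr. The barcodes with over 500 and up to 2000 genes that the gene limit left out included 58 of endothelial type in TAK-931, with Kdr at 356, Flt1 at 336, Nrp1 at 127 and Tie1 at 138.5 CPM, and Aplnr at 206 and Pgf at 51.5.

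In macrophages Flt1 and Kdr were higher in TAK-931, at far lower levels than in endothelial cells, and the other receptors had intervals that hold 0 or no vehicle UMI. Of 9 genes with enough UMIs, 4 were at least 2-fold higher in TAK-931 (Flt1, Kdr, Angpt2 and Aplnr), where 13.4% of 13702 genes were, and 1 (Pgf) was 2-fold lower, where 8.41% were. Flt1 was at 1.44 (4 UMIs) in vehicle and 15.1 (530 UMIs) in TAK-931, a log2 ratio of 3.39 (2.03 to 5.27). Kdr was at 6.48 (18 UMIs) and 21.3 (747 UMIs), a log2 ratio of 1.72 (1.05 to 2.48). Angpt2 rested on 3 UMIs in vehicle (log2 ratio 1.59, 0.01 to 3.89) and Aplnr on 1 (1.20, -1.39 to 6.55). Tie1 was at 1.44 and 1.23 (log2 ratio -0.23, -1.69 to 1.71), and Tek had 0 and 10 UMIs. The Pgf log2 ratio fell short of 2-fold, at -0.83, with no limit on a second lineage, at -0.99 under median-ratio scaling and at -0.84 without the 3 cells with most Pgf UMIs in each library.

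Nrp1, which macrophages express in their own right, was at 51.1 (43.0 to 60.2) in vehicle and 57.5 (55.02 to 60.1) in TAK-931, a log2 ratio of 0.17 (-0.08 to 0.43). Macrophages were 6.42% of kept vehicle cells and 60.5% of kept TAK-931 cells, and their share of Nrp1 UMIs was 18.4% in vehicle and 65.3% in TAK-931, that of Kdr UMIs 1.38% and 30.6%, and that of Flt1 UMIs 0.145% and 16.9%. Endothelial cells held 58.1% and 13.9% of Nrp1, 80% and 47.3% of Kdr, and 64.8% and 40.6% of Flt1 UMIs. Tek, Tie1 and Aplnr UMIs were largely endothelial in both, at 83.3% and 71.4%, 83.3% and 73.8%, and 84.7% and 77.2%.

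Thinned to 4000 UMIs, 1.81% of vehicle and 7.01% of TAK-931 macrophages had a Kdr UMI (6.79% and 16.7% before thinning) and 0.905% and 5.59% a Flt1 UMI (1.81% and 14.4%). In T/NK cells of TAK-931 the thinned shares were 0.705% and 0.846%. From markers that macrophages should lack, free RNA was estimated to make up 4.11% of vehicle and 3.63% of TAK-931 macrophage UMIs, which would place Kdr at 0.380 and 1.29 and Flt1 at 0.811 and 1.68 CPM there. The measured TAK-931 levels of both and the vehicle level of Kdr (6.48, 3.84 to 10.2) were above those values. The vehicle level of Flt1 (1.44, 0.392 to 3.69) had the free RNA value inside its interval, so the size of its ratio is uncertain, and it ranged from 2.96 to 5.31 over the alternatives.

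Endothelial markers were also found in macrophages. In TAK-931 macrophages there were 17.4 Kdr and 12.3 Flt1 UMIs per Tie1 UMI, against 1.61 and 1.77 in TAK-931 endothelial cells, whereas Aplnr per Tie1 was 0.674 and 1.13. Of the endothelial markers, Cdh5 was at 1.08 and 3.82 CPM in macrophages, Egfl7 at 1.44 and 4.05, Esam at 0.360 and 2.23, Cldn5, Emcn and Ptprb were at 0 in vehicle (which allows up to 1.08) and at 0.685, 1.26 and 1.23 in TAK-931, and Pecam1 and Eng, which macrophages also express, were at 44.3 and 43.8 and at 16.9 and 20.1. The 8 markers used for assignment summed to 64.1 and 77.2 and the 8 check markers to 7.56 and 11.7. With 0.5 UMI added where vehicle had none, 6 of the former and 7 of the latter were at least 2-fold higher, with median log2 ratios of 1.89 and 1.94, near the 1.72 of Kdr. Since 3 and 5 of them were at 0 in vehicle, the counts fell to 3 and 2 and the medians to 0.24 and -0.41 with 3 counts in their place. The part of endothelial RNA in the receptor ratios of macrophages was not tested.

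The 353 TAK-931 macrophages with Kdr had a summed endothelial marker level of 106 CPM against 70.4 in those without. Their macrophage marker level was 11309.6 against 13759.5. Of the 353 cells, 148 (41.9%) had no endothelial marker UMI, against 48.4% of the cells without Kdr. Flt1 was found in 304 cells, of which 69 also carried Kdr. The endothelial marker level was 109.3 CPM in the 304 cells, 72.02 in cells without Flt1 and 220.3 in the 69 cells with both receptors. No endothelial marker UMI was found in 51.6% of the cells with Flt1, against 46.6% of those without it.

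In macrophages without any endothelial marker UMI (128 vehicle and 998 TAK-931 cells, chosen after seeing the data), the log2 ratio was 1.66 for Kdr, 3.03 for Flt1, 1.93 for Angpt2, -0.51 for Pgf and 0.28 for Nrp1. Pecam1 and Eng, which macrophages also express, were among the markers that set cells aside. By C1q state, Flt1 had 0 vehicle UMIs and 194 TAK-931 UMIs (8.30 CPM) at 10 or more C1q UMIs per 10000, and under that limit was at 4.87 and 28.8. Kdr was at 4.60 and 20.6 in the former state and at 11.0 and 22.8 in the latter.

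**Figure D5:**
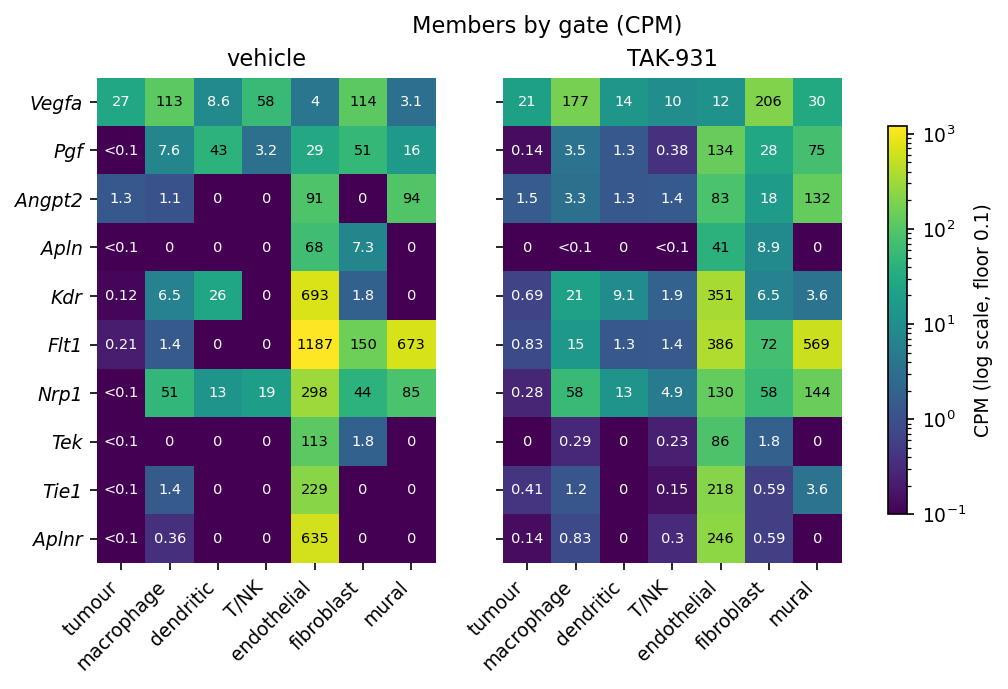
Level of each of the 10 genes (CPM, printed in each square and colored on a log scale with a floor of 0.1) in each cell type of the vehicle and TAK-931 libraries. Tek, Tie1, Apln and Aplnr were mainly endothelial in both, Flt1 was also high in mural cells (673 and 569), and Vegfa was highest in fibroblasts and macrophages.

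In vehicle, mural cells had the next highest Flt1 level after endothelial cells. They had 673 (586 to 769.5) CPM in vehicle and 569 (509 to 635) in TAK-931, a log2 ratio of -0.24 (-0.50 to 0.01), so that in TAK-931 they stood above endothelial cells (386) with no overlap of the intervals. Cells that met no list also carried Flt1 in vehicle, with 163 UMIs (393 CPM) in 8 of 30 cells, against 1 UMI in TAK-931. Over 13 alternatives the Flt1 log2 ratio of fibroblast and mural cells together ran from -1.17 to -0.54, beside a main value of -0.81. Fibroblasts had 150.1 and 72.05 (log2 ratio -1.06, -1.48 to -0.64), with 56.1% and 71.3% of those UMIs in 3 cells. The assignment set no limit between fibroblast and mural markers, and the 8 mural markers summed to 487 and 445 CPM in fibroblasts. Nrp1 was at 84.9 and 144 in mural cells (log2 ratio 0.76, 0.12 to 1.45) and at 43.9 and 57.9 in fibroblasts. Kdr, in contrast, had 1 vehicle and 13 TAK-931 UMIs in all stromal cells. Tek had 0 UMIs in mural cells of both libraries, which allows up to 9.44 and 5.34 CPM, and Tie1 had 0 and 2.

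Over fibroblast and mural cells together, 2 of 7 genes were at least 2-fold higher (Vegfa, log2 ratio 1.15, 0.76 to 1.56, and the sparse Kdr), where 14.3% of 10879 genes were, and none lower, where 8.64% were. In fibroblasts alone the counts were 2 higher (Kdr and Angpt2) and 1 lower (Flt1) of 7, beside 14.6% and 13.2%. In mural cells alone they were 2 higher (Vegfa and Pgf) and 0 lower of 5, beside 19.8% and 7.48%. All-gene medians of genes with 50 or more UMIs were -0.31 in fibroblasts and -0.21 in mural cells, -0.10 in macrophages and -0.01 in tumor cells. Over all genes with 10 or more UMIs in both libraries together they were -0.14, 0.18, 0.02 and -0.01.

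The other cell types held few receptor UMIs. In tumor cells, 3 of 5 genes were at least 2-fold higher in TAK-931 (Kdr, Flt1 and Tie1), where 10.7% of 14748 genes were, and none lower, where 7.44% were. These rested on 5, 6 and 3 UMIs in 102 cells (log2 ratios 2.52, 0.72 to 4.04, 1.98, 0.42 to 3.28, and 2.46, -0.04 to 4.42), and none of the 3 genes reached 1 CPM. The TAK-931 levels (0.690, 0.828 and 0.414) had intervals that hold the level estimated for free RNA there (0.606, 0.788 and 0.264), and 5 of the 8 endothelial assignment markers were also at least 2-fold higher. In T/NK cells 2 of 5 were lower (Vegfa and Nrp1), where 8.43% were, and 0 higher, where 15.6% were. Nrp1 there was at 19.3 and 4.94 (log2 ratio -1.96, -3.16 to -0.47), with 83.3% of the 6 vehicle UMIs in 1 cell. In dendritic cells 2 of 4 were lower (Pgf and Kdr, with 10 and 6 vehicle UMIs), where 7.29% were, and 0 higher, where 15.6% were.

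A list of 30 other angiogenesis genes was read in the same way. In endothelial cells 27 had enough UMIs, of which 7 were at least 2-fold lower in TAK-931, where 10.3% of all genes were, and 3 higher, where 10.5% were. The median log2 ratio was -0.69, beside -0.13 over all genes, -0.42 over the 8 endothelial assignment markers and -0.40 over the 8 endothelial check markers. The lower ones included the VEGF-induced tip cell gene Esm1 (128 and 21.9 CPM, log2 ratio -2.55, -2.96 to -2.15), the VEGF-C receptor gene Flt4 (129 and 25.9, -2.32), the Notch ligand gene Dll4 (181 and 58.7, -1.62), the CXCL12 scavenger receptor gene Ackr3 (85.0 and 28.3, -1.59) and the semaphorin gene Sema3f (289 and 124, -1.22). The higher ones were the chemokine gene Cxcl12 (41.8 and 493, 3.56, 3.20 to 3.95), the angiogenesis inhibitor Thbs1 (27.2 and 255, 3.23) and the Notch ligand gene Jag1 (27.9 and 96.7, 1.79).

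In macrophages 8 of 26 of these genes were at least 2-fold higher and 2 lower, beside 13.4% and 8.41% of all genes, with a median of 0.25 against 0.02 over all genes. With the 4 genes at 0 in vehicle set to 3 counts, 6 were higher and the median was 0.01, both as lower bounds. Jag1 had a log2 ratio of 1.26 (0.36 to 2.33) and S1pr1, a sphingosine-1-phosphate receptor gene, 1.06 (-0.01 to 2.39), while Cxcl12, Ramp2 and Efnb2 had 0, 1 and 1 vehicle UMIs. Pdgfb, whose product recruits mural cells, was at 55.4 and 24.9 (-1.15, -1.40 to -0.90). In stromal cells 9 of 26 were higher and 1 lower, beside 14.3% and 8.64% of all genes, with a median of -0.05 in both the list and all genes. The higher ones were led by Ackr3 (3 and 716 UMIs, log2 ratio 6.51), the VEGF family ligand gene Vegfd (8 and 190 UMIs, 3.19), Id1 (1.87), the vasodilator adrenomedullin gene Adm (66.0 and 204 CPM, 1.63) and S1pr1 (1.15). In tumor cells 11 of 22 were higher and 2 lower, beside 10.7% and 7.44%, with a median of 1.00 against -0.01 over all genes. Markers of other cells differed there too, with 5 of the 8 endothelial assignment markers at least 2-fold higher (median log2 ratio 1.54) though their sum, mostly Pecam1 and Egfl7, was 62.3 and 60.2 CPM, the T/NK markers at 0.863 and 35.6 CPM in sum and the macrophage check markers at 424 and 721, and their part in the list's ratios was not tested. Among the higher was the CXCL12 receptor gene Cxcr4 (35.7 and 72.8, 1.03, 0.90 to 1.16), with S1pr1 (4.94) and Thbs1 (2.30), and the lower were Hey1 (-2.07, 1 TAK-931 UMI) and Calcrl (5.66 and 1.93, -1.55).

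Across the 14 sums of a cell type in a library, each member was set beside the 15087 genes with 50 or more UMIs by Pearson's r of log2(CPM + 5). The points share libraries and their depth, so r is a description. Tie1 was most like Rbp7, Arhgef15 and Thsd1, Tek most like Erg, Cldn5 (itself an endothelial marker of the assignment) and Tspan18, and Aplnr most like Krt20, Afap1l1 and Clca2, all with r of at least 0.995. Kdr was most like Clec1a (r = 0.98), Cd300lg and Gm46565, Flt1 most like Cavin3 (r = 0.98), Ehd2 and Gng11, Nrp1 most like Chka (r = 0.96), Frmd4a and Crk, Angpt2 most like Mrgpre (r = 0.98), Pde9a and Apold1, and Apln most like Vwa1 (r = 0.99), Unc45b and Mgll. Pgf was most like Btbd7 (r = 0.94), Atl1 and Mbd5, and Vegfa most like Rhou (r = 0.87), Abcd2 and C3. Vegfa thus had the lowest r to its nearest gene of the 10.

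Within TAK-931 endothelial cells, Flt1 and Kdr were found in a lower share of cells with Pgf than of cells without it. In cells thinned to 4000 UMIs, 12 of 37 cells with Pgf (32.4%) had a Flt1 UMI, against 100 of 144 without Pgf (69.4%), and Kdr was found in 45.9% against 69.4%. Angpt2 went the other way, in 48.6% of cells with Pgf against 21.5%, while Tie1 was found in 51.4% and 53.5%. The shares with and without Pgf were 24.3% and 40.3% for Nrp1, 16.2% and 29.2% for Tek and 35.1% and 50.7% for Aplnr. These are shares of cells within 1 library and were not tested.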

How the data were processed

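The raw UMI counts were deposited by the authors as a filtered matrix per library, made from 10x Genomics 3′ libraries; per the labels' processing notes Cell Ranger 6.0.0 and the mouse build mm10 were used, while the methods name a human build for all reads. No authors' annotation of cells was used. Kept cells had over 2000 genes and under 15% mitochondrial UMIs. For each of 8 marker lists, the mean of log1p(10000 × UMIs/total) was taken. A cell went to the highest list if at least 3 of its markers had a UMI and no other lineage reached a fraction of 0.5 of that mean. One marker of the macrophage list is not reported here. No doublet caller was run. Sums gave CPM with exact Poisson intervals, ratios exact conditional binomial intervals (0.5 UMI added to both where 1 sum was 0), and shares Clopper-Pearson and Newcombe intervals. These intervals cover counting error only. The 10 genes and all lists were chosen with earlier results of these data known. Genes outside the 10 were named if at least 2-fold different with 50 or more UMIs, at most 5 per cell type and direction, or as the 3 most alike by r; the Ldha, Slc2a1 and Pfkfb3 values, markers and subtype genes were named after their values were seen. Free RNA was the median, over markers of other lineages at 20 CPM or more, of the CPM in a cell type as a share of that in the library sum. Coordinates are from GENCODE for GRCm38, sequences from RefSeq. Python 3.11.15, NumPy 2.4.6, SciPy 1.17.1, pandas 2.3.3 and Matplotlib 3.10.9 were used, and the scripts were tested on simulated counts. Alternatives covered the cell filters, the assignment rule, scaling, thinning depth, minimum UMIs, free RNA and leaving out the cells with most UMIs of a gene.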

Additional observations from a re-analysis of the deposited data

Results flagged for a closer look

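Several of the genes had ratios of opposite sign in different cell types, each with a counting interval that leaves out 0, and none of these differences between cell types was tested, since each group was 1 library. Flt1 had a log2 ratio of 3.39 in macrophages and -1.62 in endothelial cells, and Kdr 1.72 and -0.98. Pgf had 2.19 in endothelial cells and -1.09 in macrophages. Vegfa had 0.86 in fibroblasts and -2.54 in T/NK cells, where the vehicle library had only 20 cells, and Nrp1 had 0.76 in mural cells and -1.96 in the same T/NK cells.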

How the results depend on the processing

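No paired analysis was possible because each group was 1 library, and for the same reason no library could be left out. Of 459 values under alternatives, 409 stayed within the main value's counting interval or within 1.5 times a main count, 50 moved and 0 of the called ratios turned sign; 18 of 24 log2 ratios kept their sign in every alternative. The cause of these shifts was not tested. The tumor share of vehicle Vegfa UMIs was 86.4% with cells over 1000 genes, 85.9% over 500 and 88.7% with no limit on a second lineage, and the macrophage share in TAK-931 was 85.1% with no such limit and 80.7% with that limit at 0.333 in place of 0.5. The macrophage Vegfa log2 ratio was 0.39 as the mean of each cell's level and 0.16 without cells with an endothelial marker UMI (added after seeing the data). The number of genes at least 2-fold lower in macrophages was 0 with no second-lineage limit, under median-ratio scaling and without the top 3 cells, 3 after free RNA was subtracted and 2 with a minimum of 1 UMI. In stromal cells 1 was higher and 1 lower with no second-lineage limit, 1 lower with at least 2 markers and 1 higher at a minimum of 50 UMIs. In endothelial cells the number lower was 2 with no second-lineage limit, under median-ratio scaling and without cells with a UMI of the 7 macrophage markers (added), and 4 with no mitochondrial limit and as the mean of each cell's level; 1 was higher with the limit at 0.333, at 50 UMIs and without cells with a UMI of the 7 macrophage markers named above (added). In tumor cells 0 were higher without the top 3 cells and at 50 UMIs, and 8 at 1 UMI. Without thinning, endothelial share differences were 24.0 points for Pgf, -7.59 for Kdr, -16.0 for Flt1 and -14.6 for Aplnr, and the macrophage Vegfa difference 16.9; thinned to 2000 UMIs the Flt1 difference was -40.0. Leaving out endothelial cells with a mural marker UMI, also added, gave no value, since 2 vehicle cells were left. Endothelial Pgf was at 3.75 without the top 3 cells.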
